A study of Mus musculus with 58 samples.

Results

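The 10 genes described here move lipid out of brain cells and build the lipoproteins that carry it: the ABC exporters Abca1, Abca7, Abcg1 and Abcg4, the apolipoproteins Clu and Apod, the lipoprotein proteins Lcat and Pltp, and the liver X receptors (LXRs) Nr1h2 and Nr1h3. They were chosen by name, by a rule that uses no measured value but was written with earlier results of these data known, and all 10 were found among the 31246 genes listed for each region. RNA was sequenced from 2 cortical areas, the entorhinal cortex (EC) and, as a comparison area, the primary visual cortex (PVC), of male *APOE* targeted replacement mice aged 14 to 15 months, on the strain label C57Bl/6. In each region 10 libraries came from *APOE3/3* and 19 from *APOE3/4* mice, 58 libraries in all, and the same 29 animal numbers occur in both regions. Every mouse, controls included, carries human *APOE* in the place of mouse Apoe, driven by the mouse promoter. The paper states that the mice of the study came from separate colonies, without saying how the sequenced animals were divided between them.

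In the brain, cholesterol is made locally because lipoproteins of the blood do not cross the blood-brain barrier. Astrocytes and microglia export cholesterol and phospholipid through ABC transporters onto apolipoproteins, chiefly apolipoprotein E and clusterin, and the resulting particles resemble high-density lipoprotein. LXRs are nuclear receptors that sense oxysterols, bind DNA as dimers with retinoid X receptors and switch on exporters such as Abca1 and Abcg1. APOE, the protein these mice carry in its human form, is the main acceptor of the exported lipid.

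The value available for each gene was the authors' mean normalized count, 1 mean per region over both genotypes. Since these are means over all libraries of a region, no SD, interval or test over mice can be given, and a difference printed here has no replicate check. Depth per library was not analysed here, and the sum of these means was 49385500 for the EC against 27058400 for the PVC. The comparison of *APOE3/4* with *APOE3/3* mice was not made here, because the pooled means do not separate the genotypes. What can be compared is the genes with each other within a region, per length of the gene, and the EC with the PVC for each gene. To compare genes, the mean was divided by the exonic length and expressed per 1000000 of the same sum over all genes with a length (length-scaled level, in units). To compare regions, whose separately deposited tables are on different scales, the EC mean was divided by 1.85, the median EC over PVC ratio of 12808 well-expressed genes.

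The tissue labels were checked against marker genes. Reln, a marker of superficial entorhinal neurons, was 1.75 log2 units higher in the EC. Lef1, the other marker of that list, had a log2 ratio of 0.31, short of the fold of 0.32 used below. Rorb, Scnn1a and Rspo1, genes of layer 4 of sensory cortex, had log2 ratios of −1.21, −0.35 and −4.60. The markers of 2 other cell types differed between the dissections as whole lists. All 8 oligodendrocyte markers were lower in the EC, between −1.62 log2 for Mobp and −0.98 for Cnp, and their summed length-scaled level was 619 units in the EC against 1531 in the PVC. All 8 markers of meningeal and perivascular fibroblasts were higher in the EC, between 0.66 log2 for Lum and 3.08 for Dcn, with sums of 2721 and 1095 units. Ptgds alone made up 2428 and 1018 of these units. With no scaling all 8 oligodendrocyte markers still had lower means in the EC, at ratios of 0.601 to 0.934. Of the 8 hippocampal markers 4 were past a fold of 0.32 log2 higher in the EC and none lower, the highest being Fibcd1 at 2.14 log2, where 17.3% of all genes were past the fold as higher and 10.5% as lower. Choroid plexus markers were low, at 14.5 units in sum in the EC against 47.0 in the PVC, of which Ttr made up 9.51 and 41.9.

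LXRs bind a direct repeat of the unit AGGTCA with 4 bases between the copies, so the promoters of the genes were searched for it on both strands. RefSeq windows of build GRCm38.p6, of 300 bases from 250 before to 50 after the start site, were at hand for 7 of the 10 genes, and the same letters were found once on their chromosome in NCBIM37. No entry was at hand for Abcg1, Abcg4 and Clu. Nr1h3 had 2 overlapping windows, for 2 start sites. None of the 7 genes held an intact unit, against 18.1% of all 27025 genes with a window. The first search allowed at most 1 mismatch in each unit, and it found a repeat in 0 of the 7 genes and in 545 of all genes (2.02%). A second search, for the nearest match of any closeness, was chosen after the first had found none and after the Abca1 window had been read by eye, so its result carries no weight of its own. It found repeats with at most 3 mismatches over the 12 positions compared in 2 of the 7 genes, Abca1 and Lcat, where 24.5% of all genes have one. At most 4 mismatches were reached by 5 of the 7 genes and by 79.3% of all genes. The nearest matches of Abca1 and Lcat, the closest found, and of Nr1h2 are printed 5′ to 3′ on the strand of the repeat, with both units and the bases between them in capitals. Lcat and Nr1h2 are the genes that differ most between the regions, and a link of the matches to this was not tested. Nr1h3 and Abca7, not printed, have matches with 4 mismatches, as Nr1h2 has.

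Abca1, NCBIM37 chr4:53172812-53172841, plus strand: agcgccgGGGTTACTACCGGTCAaacgctg
Lcat, NCBIM37 chr8:108467302-108467331, minus strand: ccagataAGGCCAGCCCAGGACTgcctcat
Nr1h2, NCBIM37 chr7:51809452-51809481, plus strand: agaaaaaAGTTCCGGAAAGTTCTttcgttt

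The Abca1 match lies 67 to 52 bases before the start site, with 2 mismatches in its first unit and 1 in the second. That of Lcat lies 22 to 7 bases before the start site, with 1 and 2 mismatches. That of Nr1h2 lies 139 to 124 bases before it, with 2 mismatches in each unit. These are matches of letters at a closeness common among all genes, and binding was not measured.

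Of the 10 genes, clusterin was by far the most abundant and LXRα the least. Clu, on NCBIM37 chr14:66587320-66600385, encodes clusterin, a secreted chaperone and apolipoprotein made mainly by astrocytes. The authors' mean normalized count of Clu was 35273 in the EC against 16997 in the PVC. Its length-scaled level was 768 units in the EC against 669 in the PVC, above 99.2% and 99.0% of the genes with a mean count of at least 10. Clu alone made up 61.5% of the summed length-scaled level of the 10 genes in the EC against 59.8% in the PVC. Apod, on chr16:31296278-31314894, encodes apolipoprotein D, a small lipocalin of oligodendrocytes and perivascular cells that binds arachidonic acid and other lipids. It had an authors' mean of 5106 in the EC against 2658 in the PVC, and its length-scaled level was 148 and 140 units, the second place in both regions. Clu stood 5.18-fold above Apod per length in the EC against 4.79-fold in the PVC. With the longest transcript as length, Clu stood at 1235 units in the EC against 1076 in the PVC. With the median transcript length it stood at 1351 against 1184. The share of Clu and its ratio to Apod therefore rest on the length used, while the order of the 2 genes does not.

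**Figure D1:**
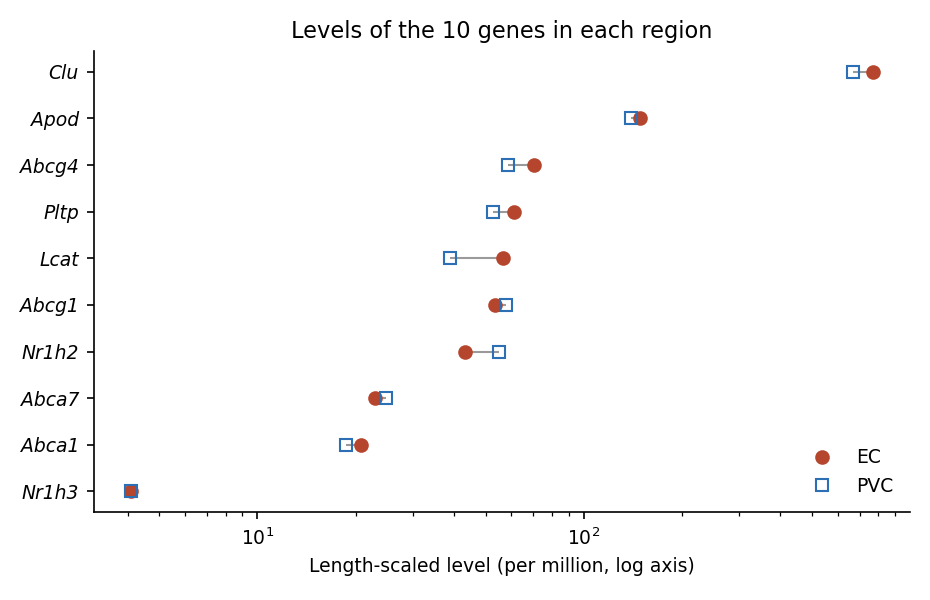
Length-scaled level (units per 1000000, log axis) of each of the 10 genes, with the EC as filled circles and the PVC as open squares and a grey line joining the regions; each point is 1 mean over the libraries of a region, without error. Clu lies highest at 768 and 669 units and Nr1h3 lowest at 4.11 and 4.09, while Lcat and Nr1h2 have the longest joining lines, in opposite directions.

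The ABC exporters came in the order Abcg4, Abcg1, Abca7, Abca1 per length in both regions. Abcg4, on chr9:44081271-44096698, is a neuronal relative of Abcg1. The mean given by the authors was 4909 in the EC against 2256 in the PVC, or 70.5 and 58.6 units. Abcg1, on chr17:31194643-31252722, passes cholesterol to lipoprotein particles that already hold lipid. The authors' mean for it was 2907 in the EC against 1738 in the PVC, or 53.5 and 57.8 units. The level of Abcg4 was thus 1.32-fold that of Abcg1 in the EC against 1.01-fold in the PVC, a ratio that the scaling between regions cannot change but the length can, since with the median transcript length it was 4.49-fold and 3.45-fold.

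Abca1, on chr4:53043659-53172767, loads cholesterol and phospholipid onto apolipoproteins that carry little lipid, the step that begins a particle. It had an authors' mean of 2869 in the EC against 1428 in the PVC. Over its 10363 exonic bases, the longest of the 10 genes, this is only 20.7 and 18.6 units, close to the medians of 21.1 and 20.9 of all genes at the minimum. Abca7, on chr10:79459239-79478317, is the closest relative of Abca1, and variants of its human counterpart alter the risk of Alzheimer's disease. The mean given by the authors was 2072 in the EC against 1240 in the PVC, or 22.96 and 24.8 units. Abca1 stood at 0.902 of the Abca7 level in the EC against 0.7503 in the PVC. The order of these 2 genes rests on the length used, since with the median transcript length Abca1 stood above Abca7, at 1.67-fold in the EC against 1.39-fold in the PVC.

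Both proteins that remodel particles were of middle rank. Pltp, on chr2:164665018-164683211, transfers phospholipid between lipoproteins. The authors' mean for it was 2099 in the EC against 995 in the PVC, or 61.3 and 52.5 units. The value of Pltp is less certain than the others, because 495 of its 2562 exonic bases (19.3%) are also exons of Ctsa on the opposite strand, and the counting is not stated to use strand. Of the 2672 different reads of 149 bases that Pltp transcripts can give, 164 (6.14%) also lie in a Ctsa transcript. Ctsa, a lysosomal carboxypeptidase, had a mean of 4727 in the EC against 2488 in the PVC, and its own scaled ratio was 0.04 log2. Lcat, on chr8:108463451-108467282, esterifies cholesterol within particles and is made by astrocytes in the brain. It had an authors' mean of 1013 in the EC against 387 in the PVC, or 56.5 and 38.98 units.

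The LXRs differed widely from each other. Nr1h2 encodes LXRβ, the form found in most tissues, and lies on chr7:51804986-51809321. The mean given by the authors was 1946 in the EC against 1365 in the PVC, or 43.3 and 54.9 units. Nr1h3 encodes LXRα, the form of liver and macrophages, and lies on chr2:91024218-91042991. The authors' mean for it was 138 in the EC against 76.0 in the PVC, or 4.11 and 4.09 units. LXRβ therefore exceeded LXRα 10.5-fold per length in the EC against 13.4-fold in the PVC. This direction held with all 3 lengths tried. Of the exonic bases of Nr1h3, 34 (1.35%) are shared with the processed transcript Gm13783 on the same strand. The paper describes the annotation used for counting as limited to protein-coding genes.

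Relatives among the 10 genes could in principle share reads, and this was checked on the transcripts of NCBIM37. None of the reads of 149 bases that the 9 genes other than Pltp can give lay in a protein-coding transcript of another gene. Abcg1 and Abcg4, Abca1 and Abca7, and Nr1h2 and Nr1h3 could therefore be told apart by an exact match over a full read.

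Between the regions, Lcat stood apart on the side of the EC and Nr1h2 on the side of the PVC. After scaling, the EC mean of Lcat was 1.42 times the PVC mean, 0.50 on the log2 scale, above 89.4% of the 16456 genes with a mean count of at least 10 over both regions. The EC mean of Nr1h2 was 0.773 times the PVC mean, −0.37 on the log2 scale, above 8.87% of genes. A log2 ratio of 0.32 in either direction was taken as past the fold. By that measure 1 of the 10 genes, Lcat, was higher in the EC, where 17.3% of all genes were. Likewise 1 of the 10, Nr1h2, was lower in the EC, where 10.5% of all genes were. These shares are near the background, so the counts say nothing particular about the list. The other 8 genes lay within the fold. At a fold of 1.5 neither gene passed. In bulk tissue, fewer cells of a type and less RNA per cell cannot be told apart.

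**Figure D2:**
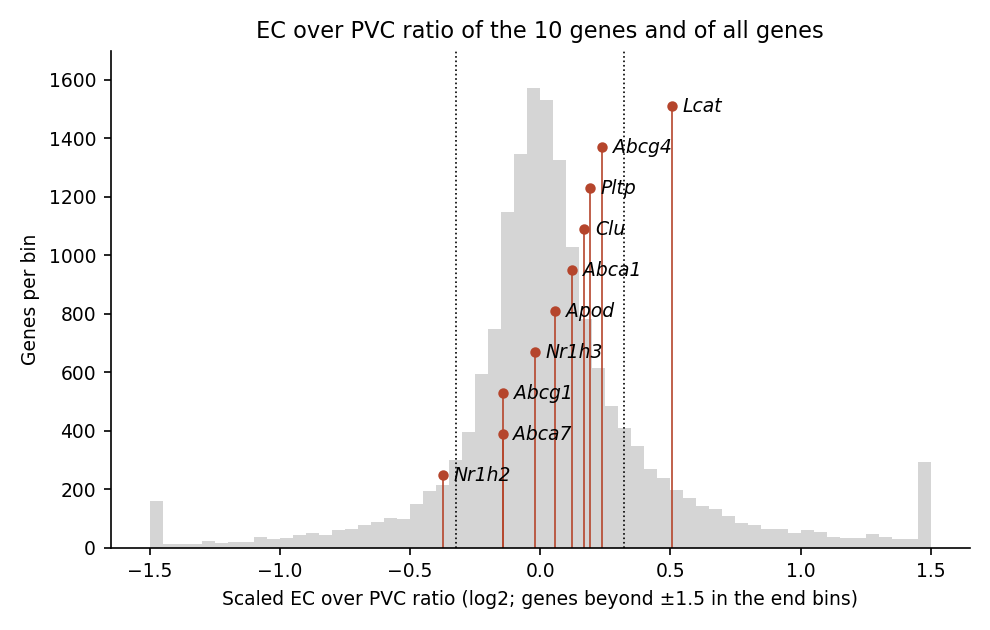
Scaled EC over PVC ratio on the log2 scale, with all 16456 genes as grey bars (genes per bin) and the 10 genes as red points whose height only separates the names; dotted lines mark the fold, 0.32 in either direction. Lcat (0.50) lies beyond the right line and Nr1h2 (−0.37) beyond the left line, while with no scaling all 10 genes lie above 0.

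The 8 genes within the fold fell on both sides of 0. Abcg4 had a ratio of 1.18, Pltp of 1.14, Clu of 1.12, Abca1 of 1.09 and Apod of 1.04. Nr1h3 had one of 0.986, Abcg1 of 0.907 and Abca7 of 0.906. The median log2 ratio of the 10 genes was 0.09, and that of all genes at the minimum 0.02. With Lcat, 6 of the 10 genes lay above 0 (60.0%), as did 53.4% of all genes. Without scaling the 4 genes below 0 also come to lie above it, as 94.6% of all genes then exceed the fold towards the EC. The ratios of the means as deposited ran from 1.43 for Nr1h2 to 2.62 for Lcat.

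The shift of Lcat against Nr1h2 between the regions, 1.84-fold, depends neither on the scaling between regions nor on the lengths used. Over all exonic bases, Lcat stood at 1.31 times the level of Nr1h2 in the EC and 0.711 times in the PVC. Which of them was higher in the EC does depend on the length, since Lcat stood below Nr1h2 in both regions with the longest transcript (0.775 and 0.422 times) and with the median transcript length (0.593 and 0.323 times). Lcat and Nr1h2 have the highest and the lowest ratio of the 10 genes, so by construction no other pair can shift more. The next pair was Lcat with Abca7 at 1.57-fold. In the order by length-scaled level Lcat held the fifth place in the EC and place 7 in the PVC, Pltp place 4 and place 6, Abcg1 place 6 and place 4, and Nr1h2 place 7 and the fifth. The other 6 genes held the same place in both regions. With the longest or the median transcript length Lcat held place 7 in both regions. The levels between place 3 and place 7 spanned only 70.5 to 43.3 units in the EC and 58.6 to 38.98 in the PVC, and without a spread over mice it cannot be said which neighbours differ.

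The cell types that make these proteins were set beside the ratios. Of the 8 astrocyte markers 2 were higher in the EC past the fold, Gfap (0.62 log2) and Aqp4 (0.55), and 1 was lower, Aldh1l1 (−0.34). Over all genes 17.3% were higher and 10.5% lower. The median of the 8 astrocyte markers was 0.13, with sums of 2859 units in the EC against 2632 in the PVC. Clu at 0.17 and Lcat at 0.50 were thus above the median of the astrocyte list, and Lcat was within its range. Abcg4 (0.24) and Pltp (0.19) were also above this median. Below it were Abca1 (0.12), Apod (0.06), Nr1h3 (−0.02), Abcg1 (−0.14), Abca7 (−0.14) and Nr1h2 (−0.37). The 8 microglial markers lay between −0.05 and 0.16 and the 8 endothelial markers between −0.29 and 0.30, and none passed the fold. Of 7 neuronal markers Snap25 (−0.54) and Nefl (−0.80) were lower in the EC, and the median was −0.23. With no scaling Snap25, Nefl and Aldh1l1 have higher means in the EC. Apod, at 0.06, is expressed both by oligodendrocytes, whose markers had a median of −1.43, and by perivascular cells, whose markers had one of 1.15. The part of the cell make-up of the dissections in the ratios of the 10 genes was not tested.

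The other genes of the pathway were taken from lists of apolipoproteins, transporters, receptor partners and targets. Of 16 other apolipoprotein genes listed, 6 reached the minimum, mouse Apoe among them. Of these, Apoc1 (1.09 log2), Apoa1 (0.59) and Apoa2 (0.45) were higher in the EC, where 17.3% of all genes were higher and 10.5% lower. Their means in the EC were 43.0, 17.4 and 26.2 counts. Apool, a mitochondrial protein despite its name, was lower (−0.50, but above 0 with no scaling). Apoo, also mitochondrial, had the highest level of this list at 73.5 and 70.3 units. Mouse Apoe was listed at a mean of 636 in the EC against 344 in the PVC, 24.04 and 23.5 units, with a log2 ratio of 0.00. As these mice carry the human gene and the reads were aligned to the mouse genome, this is not a measure of the *APOE* level, and how many human reads it holds was not tested.

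Of the 15 other ABCA and ABCG transporters 11 reached the minimum, and 7 of these were higher in the EC past the fold and none lower, with a median of 0.48 log2, where 17.3% of all genes were higher and 10.5% lower. The 8 markers of meningeal and perivascular fibroblasts were also higher in the EC, with a median of 1.15 log2. Their sums, mostly Ptgds, were 2721 and 1095 units, and the part of these cells in the ratios of the transporters was not tested. The 7 transporters higher in the EC were Abca12 (1.63), Abca9 (0.76), Abca4 (0.66), Abca8a (0.57), Abcg3 (0.56), Abca6 (0.48) and Abca8b (0.47). Abcg3 lay near the minimum of 10, with means of 25.5 counts in the EC against 9.38 in the PVC. Abca6, Abca8a, Abca8b and Abca9 are neighbouring paralogs whose sharing of reads was not checked. Abca2, a transporter of oligodendrocytes and neurons with the highest level of this list at 163 units in both regions, had a ratio of −0.03 log2. With the 4 exporters described above, Abca12 was the only transporter beyond 1 log2 unit, at a mean of 46.2 counts in the EC against 8.08 in the PVC.

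Of the 10 LXR partners and cofactors 9 lay within the fold, as did 11897 of all 16456 genes. These 9 had ratios from −0.21 for Ncoa3 to 0.13 for Ncoa1. The exception was Rxrg, one of the retinoid X receptors with which LXRs pair. It had an authors' mean of 634 in the EC against 60.1 in the PVC, or 20.7 and 3.54 units, a ratio of 2.52 log2. Rxra (0.02) and Rxrb (−0.21) lay within the fold. Rxrb was the most abundant of the 3 receptors in both regions, at 53.2 and 60.2 units. Of the 14 other LXR target genes 11 reached the minimum. Apoc1 was higher in the EC, and Lpl (−0.54) and Arl4c (−0.33) were lower, though above 0 with no scaling. Over all genes 17.3% were higher and 10.5% lower. The median of this list was 0.00, which is the value of mouse Apoe, a gene of the list that does not measure the *APOE* level here. Scd2, a fatty acid desaturase, had the highest level at 937 and 952 units with a ratio of −0.05, and Srebf1, the LXR-driven regulator of fatty acid synthesis, had a ratio of 0.01.

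**Figure D3:**
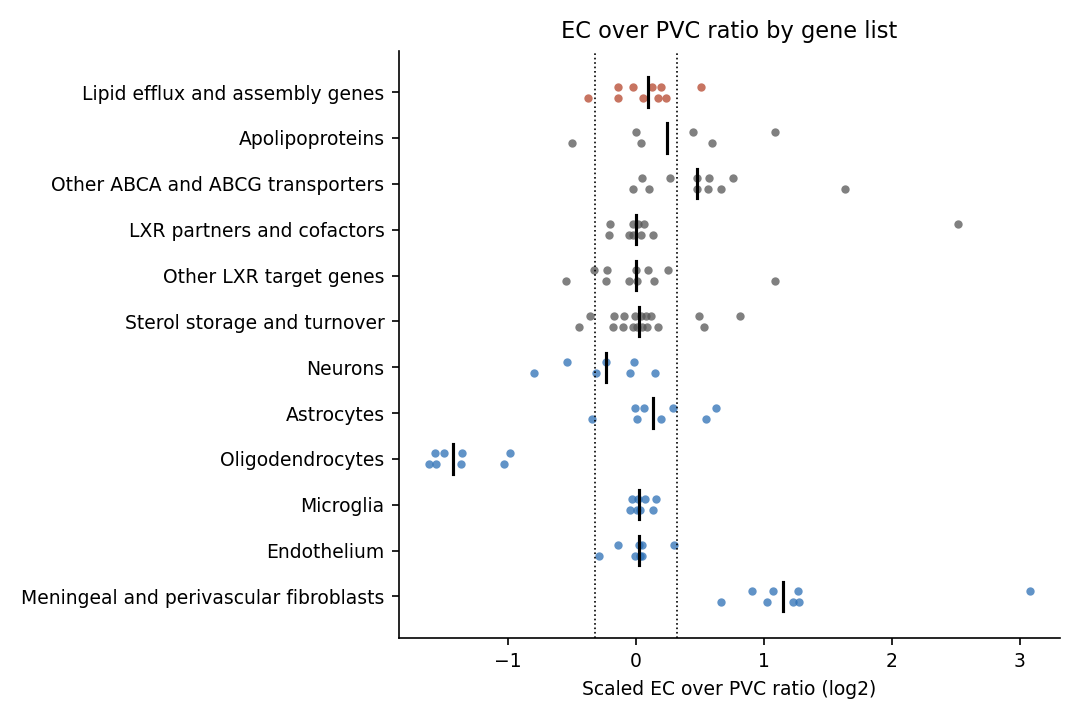
Scaled EC over PVC ratio (log2) of each gene at the minimum, by list, with the 10 genes in red, other pathway lists in grey and cell type markers in blue; black bars are list medians and dotted lines mark the fold, 0.32 in either direction. The 10 genes (median 0.09) lie around 0, the oligodendrocyte markers (median −1.43) far left, the fibroblast markers (median 1.15) and the other transporters (median 0.48) to the right, and Rxrg is the far point among LXR partners; without scaling every point lies 0.88 further right.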

How the data were processed

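The authors aligned single-end reads of 149 bases to mm9 with Tophat and Bowtie, counted them per gene with HT-SEQ on a modified NCBIM37 annotation, and compared the counts with DESeq2, per the paper's methods, and 1 table was deposited per region. Whether the regions were normalized together is not given in the sources used here, but the median ratio between the tables of 1.85 shows that their scales differ. Each deposited table holds a mean normalized count, a signal the authors obtained by dividing counts by size factors and averaging over all libraries of the region. The other deposited columns hold the authors' own genotype comparison (fold change, its error, statistic and *p*-values) and were not used. No values of single mice were used.

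Ratios between regions were scaled by the median ratio over genes with a mean of at least 100, and used genes with a mean of at least 10 over both regions, with a fold of 0.32 log2. Exonic lengths came from GENCODE vM1 on NCBIM37, over all transcripts of a gene, and not from the authors' modified annotation. They covered 81.2% of all listed genes and 96.1% of genes at the minimum. The exons behind a length may therefore differ from those counted. Python 3.11.15, numpy 2.4.6, pandas 2.3.3 and matplotlib 3.10.9 were used. The calculation of the ratios was checked on simulated means with a common scale and counting noise only. That check covers the calculation and says nothing about variation between mice. Named genes are the 10 members, Apoe, and of each pathway list the genes of highest and lowest ratio and of highest level. Other genes of these lists past the fold, Rxra, Rxrb, Srebf1 and the single markers named were chosen after their values were seen. Members and lists were chosen with earlier results of these data known. The check of Ctsa and the promoter search were added after the values were seen. The promoter search was first run with at most 1 mismatch in each unit, found none of the members, and was then repeated as a nearest-match search. Both results are given. The genotype comparison and the immunolabeling were not analysed here.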

Additional observations from a re-analysis of the deposited data

How the results depend on the processing

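Scaling by the totals, or by the totals without the 100 most abundant genes, left Lcat as the 1 gene higher and Nr1h2 as the 1 gene lower in the EC, with a median log2 ratio of the 10 genes of 0.106 and 0.104 in place of 0.091. So did a minimum of 100 counts and no minimum. With no scaling, which shifts every ratio by 0.88 because the EC means are larger, 10 genes were past the fold as higher and 0 as lower, the median was 0.974, and Nr1h2 turned to 0.51. At a fold of 1.5 there were 0 higher and 0 lower, where 8.65% and 5.16% of all genes passed. With the longest transcript as length 7 of the 10 genes kept their place in each region, and with the median transcript length 6 did in the EC and 5 in the PVC. Clu and Apod led and Nr1h3 came last with all 3 lengths. No paired analysis was possible because the tables hold 1 mean per region, although the same animal numbers occur in both. In the promoters, the first search found 0 of 7 genes and the nearest-match search, chosen after that, 2 at no more than 3 mismatches. Depth per library and the spread over mice limit every value and were not analysed here. Over all genes, 15570 were higher and 241 lower with no scaling, 6285 and 4038 with no minimum, and 1556 and 1219 at a minimum of 100.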

Other observations

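Of 20 listed genes that store and turn over sterols, 18 reached the minimum, 3 were higher and 2 lower in the EC past the fold, where 17.3% of all genes were higher and 10.5% lower, and the median log2 ratio was 0.02. These counts are near the shares over all genes and say nothing particular about the list. The lower genes were Lipg (−0.44), a lipase of endothelium, and Stard3 (−0.36), a sterol carrier of late endosomes. The higher genes were Ch25h (0.81), the enzyme that makes 25-hydroxycholesterol, at means of 28.6 and 8.82 counts, Soat1 (0.53), which esterifies cholesterol for storage, and Gramd1c (0.49). Cyp46a1, the neuronal enzyme that makes 24-hydroxycholesterol, an oxysterol that activates LXRs, had the highest level of the list at 478 units per length in the EC against 416 in the PVC, and its log2 ratio was 0.17. With no scaling every one of these ratios would be 0.88 higher.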
